A study of Drosophila melanogaster with 12 samples.

Results

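The eye pigment genes of *Drosophila* described here are *w*, *st*, *bw*, *v*, *cn*, *kar*, *se*, *ry* and *Hn*. These 9 genes were taken by name, and by no rule on expression values, from the 17521 FlyBase genes of the deposited table. Earlier results of these data were known when they were chosen. Each of the 9 genes is needed for, or carries the precursors of, a pigment of the fly eye. All 9 were found under their symbols. Of these, 7 reached 1 CPM (reads per 1000000 reads of a library, after scaling) in at least 2 libraries and were tested, while *bw* and *cn* did not and are given by their values alone. Of the 7, *st* reached the filter only through the control, where it is high, and *v* only through the metamorphed cells, where it is high. Both are counted below with the 7, and the counts are also given over the other 5.

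The colour of the fly eye comes from a pair of pigment families. Brown ommochromes are made from tryptophan, which *v* and *cn* convert stepwise to hydroxykynurenine. Red drosopterins are pteridines made from GTP, in a branched pathway in which *se* makes a precursor of the red pigment, *ry* oxidises purines and pteridines, and *Hn* uses a pteridine cofactor. The products of *w*, *st* and *bw* are subunits of ABC transporters of the ABCG family. White pairs with Scarlet for ommochrome precursors and with Brown for pteridine precursors, and the pairs sit in the membrane of pigment granules. In flies several of these enzymes also work outside the eye, in fat body and Malpighian tubule, where *v* and *ry* are well known.

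RNA was sequenced from 12 libraries in 5 groups. Metamorphed cells (3 libraries) were ph505 clones that had passed through metamorphosis and were taken from adult flies, where they did not form tumours. Tumours (6 libraries) were ph505 eye disc tumours kept in the abdomen of adult w1118 female hosts by weekly re-transplantation, sampled at 4, 8 and 14 weeks with 2 libraries each. The control (3 libraries) was late larval wild-type eye discs that had spent 1 day in an adult host. ph505 is a loss of *ph-p* and *ph-d*, a pair of neighbouring genes for the Polycomb group protein Polyhomeotic. The clones were made by MARCM on an FRT19A chromosome, a method that makes cells homozygous and marks them with GFP, and the *ey-flp* driver also acts in leg and genital discs. The libraries were made by SMARTSeq2 and NexteraXT from polyA RNA. Metamorphed libraries were run on another sequencer than all the other libraries, so group and instrument cannot be told apart in any comparison of the metamorphed cells. There was no group of wild-type cells after metamorphosis, so genotype and stage cannot be told apart either.

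The genotype at *w* and *ry* bears on their values. The w1118 hosts and the y w FRT19A stock used for control clones carry mutant alleles of *w*, and the *w* allele on the ph505 chromosome and in the control discs that were sequenced was not stated. Fly transgenes are commonly marked with a working copy of *w* or, less often, of *ry*. Reads of the endogenous gene and of a transgene copy cannot be told apart in a table of genes, and the part of either in the values was not tested.

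The libraries differed 39.3-fold in depth, with 2072498 reads on genes in control 1, a median of 23282446.5 and 81447816 in metamorphed cells 2. A count of 3 reads stood at 1.18 CPM in control 1 and at 0.042 CPM in metamorphed cells 2, so weakly expressed genes were measured least precisely in control 1. These floors cover counting error only. In a bulk sample, fewer cells of a type and less RNA per cell cannot be told apart. Replicates were RNA samples collected independently, so p-values measure the spread between such collections.

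Markers of cell types were read first. The 8 eye disc markers summed to between 65.8 and 105 CPM in metamorphed cells, with *ato* at 0 reads, between 20.3 and 61.2 CPM in tumours, and between 1067 and 1209 CPM in control, and all 8 were lower in tumours than in control. The label of eye disc therefore fitted the control, while the tumours, which arose in the eye disc, held little of these transcripts. The 8 photoreceptor markers summed to between 326 and 1816 CPM in metamorphed cells, between 73.6 and 133 CPM in tumours, and between 274 and 425 CPM in control. Within the metamorphed cells this sum, and the rhodopsin gene *ninaE* with 698, 1245 and 213 CPM in metamorphed cells 1 to 3, was highest in library 2. *ninaE* had 0 reads in all 6 tumours and in control 1 and 2. The 8 fat body markers summed to between 2009 and 9867 CPM in metamorphed cells, between 1.01 and 14.5 CPM in tumours, and between 156 and 948 CPM in control, with *Fbp1* at 0 reads in tumours and control. The 5 haemocyte markers summed to between 62.8 and 142 CPM in metamorphed cells, between 0 and 7.79 CPM in tumours, and between 6.24 and 19.2 CPM in control. The 5 Malpighian tubule markers summed to between 7.11 and 15.3 CPM in metamorphed cells, between 0.123 and 2.85 CPM in tumours, and between 19.8 and 90.4 CPM in control, with the tubule gene *Uro* at 0 reads in metamorphed cells and tumours. The 3 genes listed as pigment cell markers summed to between 34.2 and 57.7 CPM in metamorphed cells. Their sum was 49.3 to 111 CPM in tumours and 36.5 to 63.9 CPM in control. In tumours *Pinta* made up this whole sum, since *rdhB* and *santa-maria* had 0 reads in all 6 of them, while both had reads in every metamorphed and control library except *santa-maria* in control 3. The muscle markers summed to 62.0 to 276 CPM in metamorphed cells, 23.3 to 56.1 CPM in tumours and 97.2 to 203 CPM in control. The oocyte gene *osk* stood at 0 reads in the metamorphed cells, at up to 1.56 CPM in tumours and at 531 CPM in control 2.

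**Figure D1:**
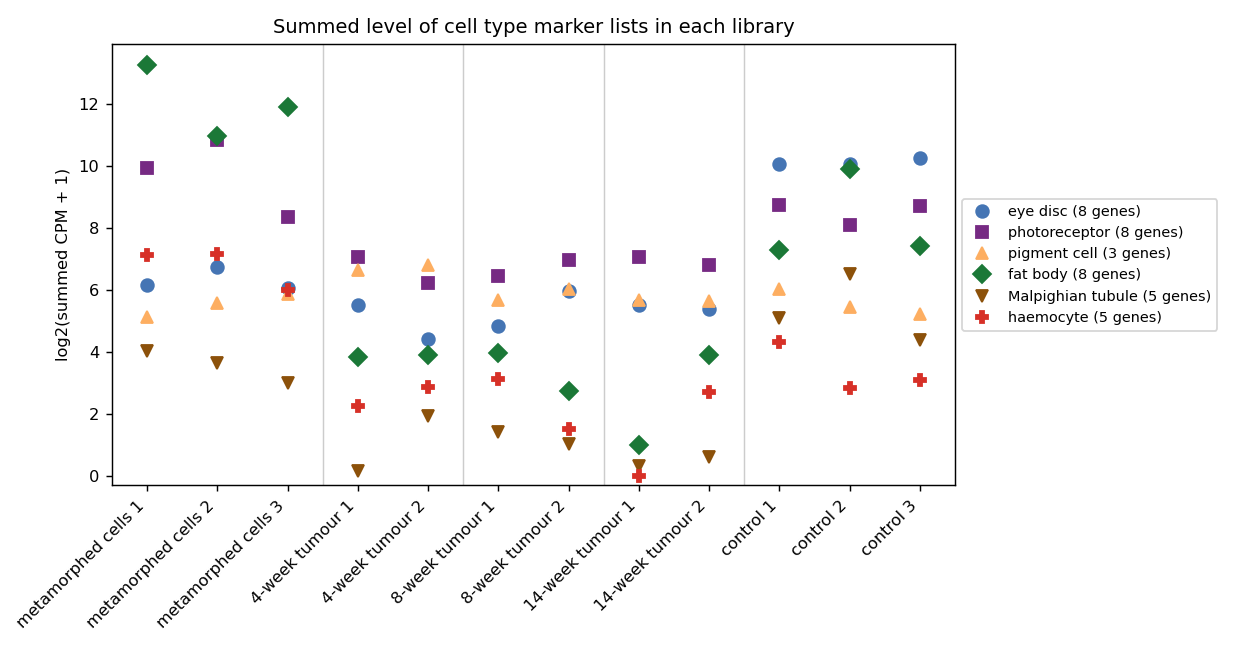
Summed level of 6 lists of cell type markers in each of the 12 libraries, as log2(summed CPM + 1), with the libraries along the x axis and 1 symbol per list. Fat body markers stand highest in the 3 metamorphed libraries (2009 to 9867 CPM) and eye disc markers in the 3 control libraries (1067 to 1209 CPM).

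Against control, the tumours had less of the transporter genes *w*, *st* and *kar*, and the pteridine genes *se*, *ry* and *Hn* did not pass the test. The log2 fold changes of *ry* (-0.95) and *Hn* (-1.08) were nevertheless close to that of *w* (-0.98). The calls by themselves therefore do not separate transporter genes from pteridine genes. Of the 7 genes tested, 3 were lower and 0 higher in tumours, where 36.0% of the 10177 genes tested passed, 21.6% lower and 14.4% higher (limma on log2(CPM + 1), Benjamini-Hochberg adjusted p of 0.05 over all genes). Without *st* and *v*, 2 of 5 were lower. The same 3 genes were those whose tumour and control libraries did not overlap, as happened for 31.3% of all genes. The median log2 fold change was -0.98, with or without *st* and *v*, and -0.19 over all genes tested. The balance over all genes depended on the scaling. At the scaling used, 1463 genes were higher and 2201 lower in tumours, with quantile normalization 2128 higher and 1711 lower, and with CPM of total reads 943 higher and 2677 lower. The median of all genes was 0.07 with quantile normalization and -0.43 for CPM of total reads. *w*, *st* and *kar* stood at -1.09, -2.04 and -1.47 after quantile normalization and at -1.30, -2.94 and -2.72 as CPM of total reads, below the median of all genes each time.

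Against control, the metamorphed cells had more *Hn* and *se* and less *w* and *st*. These were 2 higher and 2 lower genes of 7, where 40.6% of all genes passed, 21.6% higher and 19.0% lower. Against the tumours, the metamorphed cells had more *Hn*, *se*, *ry* and *v*, so 4 of 7 were higher and 0 lower, where 46.4% of all genes passed, 28.5% higher and 18.0% lower. Without *st* and *v*, 2 of 5 were higher and 1 lower against control, and 3 of 5 were higher against tumours. The median against control was 1.10 over the 7 genes but -0.05 without *v* alone and 1.10 without both, so it is not read further. The median against tumours was 1.42, which is the value of *v* itself, and 2.05 without both, beside 0.11 over all genes.

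Scaling moved the balance over all genes here too. Against control, 2198 genes were higher and 1934 lower, but with CPM of total reads 1542 were higher and 2708 lower, with a median of all genes of -0.46 in place of -0.03. *Hn*, *se*, *w* and *st* stood at 3.88, 2.02, -1.99 and -2.42 there and passed. Against tumours, 2896 genes were higher and 1829 lower, but with quantile normalization 2224 were higher and 2902 lower, with a median of -0.23. *Hn*, *se* and *ry* stood at 4.81, 1.13 and 1.70 there and passed, and *v* did not. The tumour libraries are shared by both comparisons that involve tumours, and the control libraries by both comparisons with control.

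**Figure D2:**
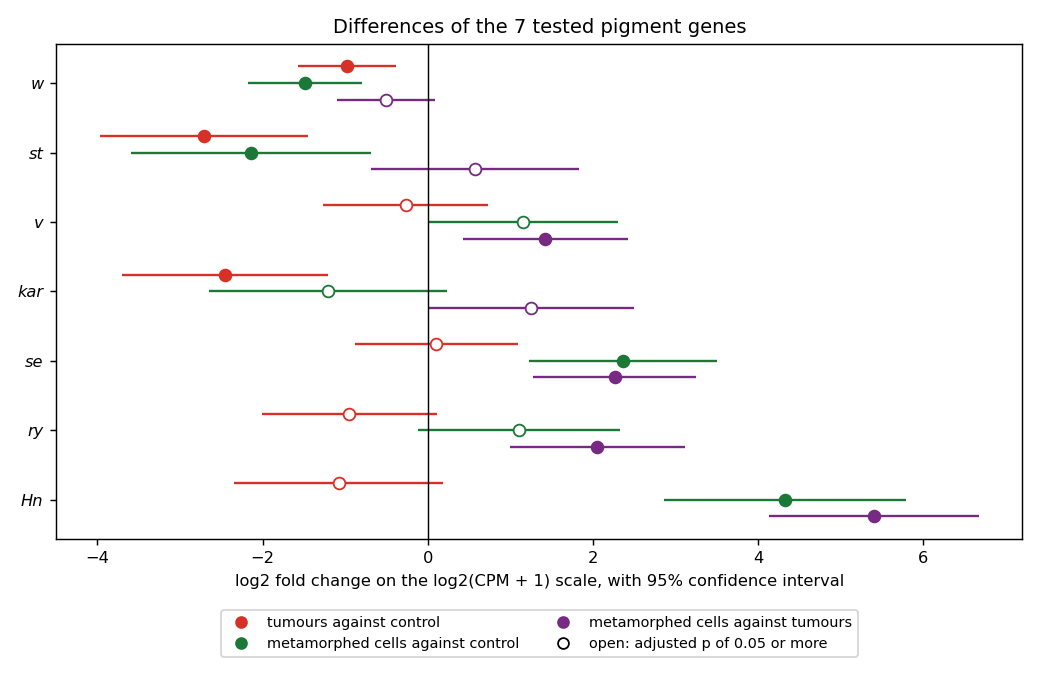
Log2 fold change of the 7 tested pigment genes on the log2(CPM + 1) scale with its 95% confidence interval, in tumours against control, metamorphed cells against control and metamorphed cells against tumours. Filled points passed an adjusted p of 0.05, among them *Hn* at 4.32 and 5.40 in the metamorphed cells and *st* at -2.71 in the tumours.

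White is the common subunit of both pigment transporters, and *w* (FBgn0003996, X:2790599-2796466, minus strand, dm6) was the most abundant pigment gene per length in control and tumours. It stood at 46.2, 70.9 and 32.7 CPM in metamorphed cells 1 to 3. The 4-week tumours had 53.8 and 65.4 CPM, the 8-week tumours 86.0 and 70.5 CPM and the 14-week tumours 71.1 and 65.8 CPM, against 129, 168 and 113 CPM in control 1 to 3. Every control library lay above every other library, and the metamorphed cells and tumours overlapped. Relative to control, the log2 fold change of *w* was -0.98 in tumours (standard error, SE, 0.28, limma adjusted p = 0.015). In metamorphed cells it was -1.49 (SE 0.32, adjusted p = 0.0022). Between metamorphed cells and tumours it differed by -0.51, with a 95% interval of -1.10 to 0.08 (adjusted p = 0.15). The tumour call was lost without control 2, at -0.82 (adjusted p = 0.076), and with each library's trend with transcript length removed, at -0.56 (adjusted p = 0.13). *w* lies inside the span of *kirre* on the other strand, with 0 exon bases in common. Whether reads were counted by strand was not stated.

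Scarlet is the partner of White for ommochrome precursors. *st* (FBgn0003515, 3L:16497651-16500460, plus strand) stood at 0, 2.51 and 0 CPM in metamorphed cells 1 to 3, and all 179 of its reads there were in library 2. In the 6 tumours together it had 3 reads, against 55, 93 and 51 reads, or 21.6, 2.87 and 2.44 CPM, in control 1 to 3. Tumours and control did not overlap, and metamorphed cells 2 lay within the range of the control. The summed reads, set against the summed libraries, gave a level 153 times as high in control as in tumours, with a counting interval of 51.7 to 750 (95%, counting error only). The fitted log2 fold changes, which the added 1 CPM makes smaller, were -2.71 (SE 0.58, limma adjusted p = 0.0032) for tumours and -2.14 (SE 0.67, adjusted p = 0.022) for metamorphed cells. Without control 1, the library in which *st* was highest, they were -1.83 (adjusted p = 0.015) and -1.26 (adjusted p = 0.081). The call in metamorphed cells was lost in 6 of 23 alternatives. Beside control 1, these were without metamorphed library 1 or 3 (-1.84, adjusted p = 0.085 and 0.088), with a pseudocount of 5 CPM (-1.02, adjusted p = 0.051), without the filter (adjusted p = 0.10) and with only the groups compared (adjusted p = 0.067). Without metamorphed library 2 the value was -2.74.

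Control 1 was also the library highest in *cd*, with 21.2 CPM against 1.67 and 3.97 CPM in control 2 and 3, and in the pigment cell marker *rdhB*, with 25.9 CPM against 2.04 and 1.10 CPM. Cardinal is a peroxidase of ommochrome synthesis, and RdhB is a retinol dehydrogenase of pigment cells. *st*, *cd* and *rdhB* were thus all highest in the control library with the fewest reads, and the part of depth or of pigment cells in this was not tested.

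Brown is the partner of White for pteridine precursors. *bw* (FBgn0000241, 2R:23527805-23538499, minus strand) stood at 0.178, 4.82 and 0.148 CPM in metamorphed cells 1 to 3, which were 10, 344 and 9 reads. It stood between 0.0404 and 0.223 CPM in tumours, with a median of 0.168, against 0.784, 0.124 and 0 CPM in control 1 to 3. A single library, metamorphed cells 2, was therefore above all others, and only this library was above 1 CPM. The 456 bases that *bw* shares with *mi* on the other strand are exonic in both genes. *mi* was expressed in every library, so low *bw* counts could hold reads of *mi* or miss reads of the shared bases.

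*kar* (FBgn0001296, 3R:12682186-12689367, minus strand) encodes a protein of the monocarboxylate transporter family, and flies without it lack brown pigment. It stood at 10.2, 2.34 and 2.86 CPM in metamorphed cells 1 to 3. The 4-week tumours had 0 and 0.134 CPM, the 8-week tumours 1.34 and 4.37 CPM and the 14-week tumours 3.27 and 0.880 CPM, against 8.23, 26.4 and 5.98 CPM in control 1 to 3. All tumours lay below all control libraries. *kar* was lower in tumours by -2.46 (SE 0.58, limma adjusted p = 0.0055), and by -1.87 without control 2 (adjusted p = 0.035). With quantile normalization the call was lost, at -1.47 (adjusted p = 0.091). The metamorphed cells overlapped both other groups and did not pass against control (-1.20, 95% interval -2.64 to 0.24, adjusted p = 0.17) or against tumours (1.25, 95% interval 0.01 to 2.50, adjusted p = 0.093). Without control 2 the value against control was -0.61 (adjusted p = 0.50). Control 2, the control library highest in *kar* and *w*, also had the highest fat body sum of the control, at 948 CPM against 156 and 169 CPM. Its Malpighian tubule (90.4 CPM), muscle (203 CPM) and ovary (532 CPM) sums were the highest too, while its haemocyte sum was the lowest (6.24 CPM). The part of other cell types in *kar* and *w* was not tested.

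The enzymes of the ommochrome pathway were at or near the floor in most libraries. *v* (FBgn0003965, X:10923972-10925631, plus strand) encodes tryptophan dioxygenase, the first step. It stood at 0, 4.83 and 2.36 CPM in metamorphed cells 1 to 3, which were 0, 345 and 144 reads, while the 6 tumours together had 1 read and the control libraries had 2, 0 and 0 reads. The metamorphed library 1 thus lay with the tumours and the control, and libraries 2 and 3 above them. Counted over summed libraries, the level in metamorphed cells was 335 times that in tumours, with a counting interval of 59.9 to 13270, and 72.5 times that in control, with an interval of 19.96 to 600. The limma value was 1.42 against tumours (SE 0.46, adjusted p = 0.022), and 1.15 against control (0.54, adjusted p = 0.10). Without metamorphed library 1 these were 2.14 (adjusted p = 4.4e-04) and 1.87 (adjusted p = 0.003). Without metamorphed library 2 or 3, *v* was above 1 CPM in a single library and was not tested, so the call rests on both. The call against tumours was lost without the filter on low values (adjusted p = 0.085), with quantile normalization (0.77, adjusted p = 0.076) and with limma-voom (adjusted p = 0.12).

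*cn* (FBgn0000337, 2R:7782797-7785067, minus strand) encodes kynurenine monooxygenase. It had 0 reads in all 3 metamorphed libraries and in 4 of the 6 tumours. It stood at 0.623 CPM in 4-week tumour 2 and at 0.0404 CPM in 8-week tumour 2, against 0, 0 and 0.143 CPM in control. At these depths 3 reads stand at 0.042 to 1.18 CPM, so a difference between groups was not detectable. An antisense RNA, *asRNA:CR45108*, shares 1229 of the 1790 exon bases of *cn*. Reads of these bases may have been counted for *cn* or left out of its count, and which was not tested. Neither *bw* nor *cn* passed in the fit without the filter.

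**Figure D3:**
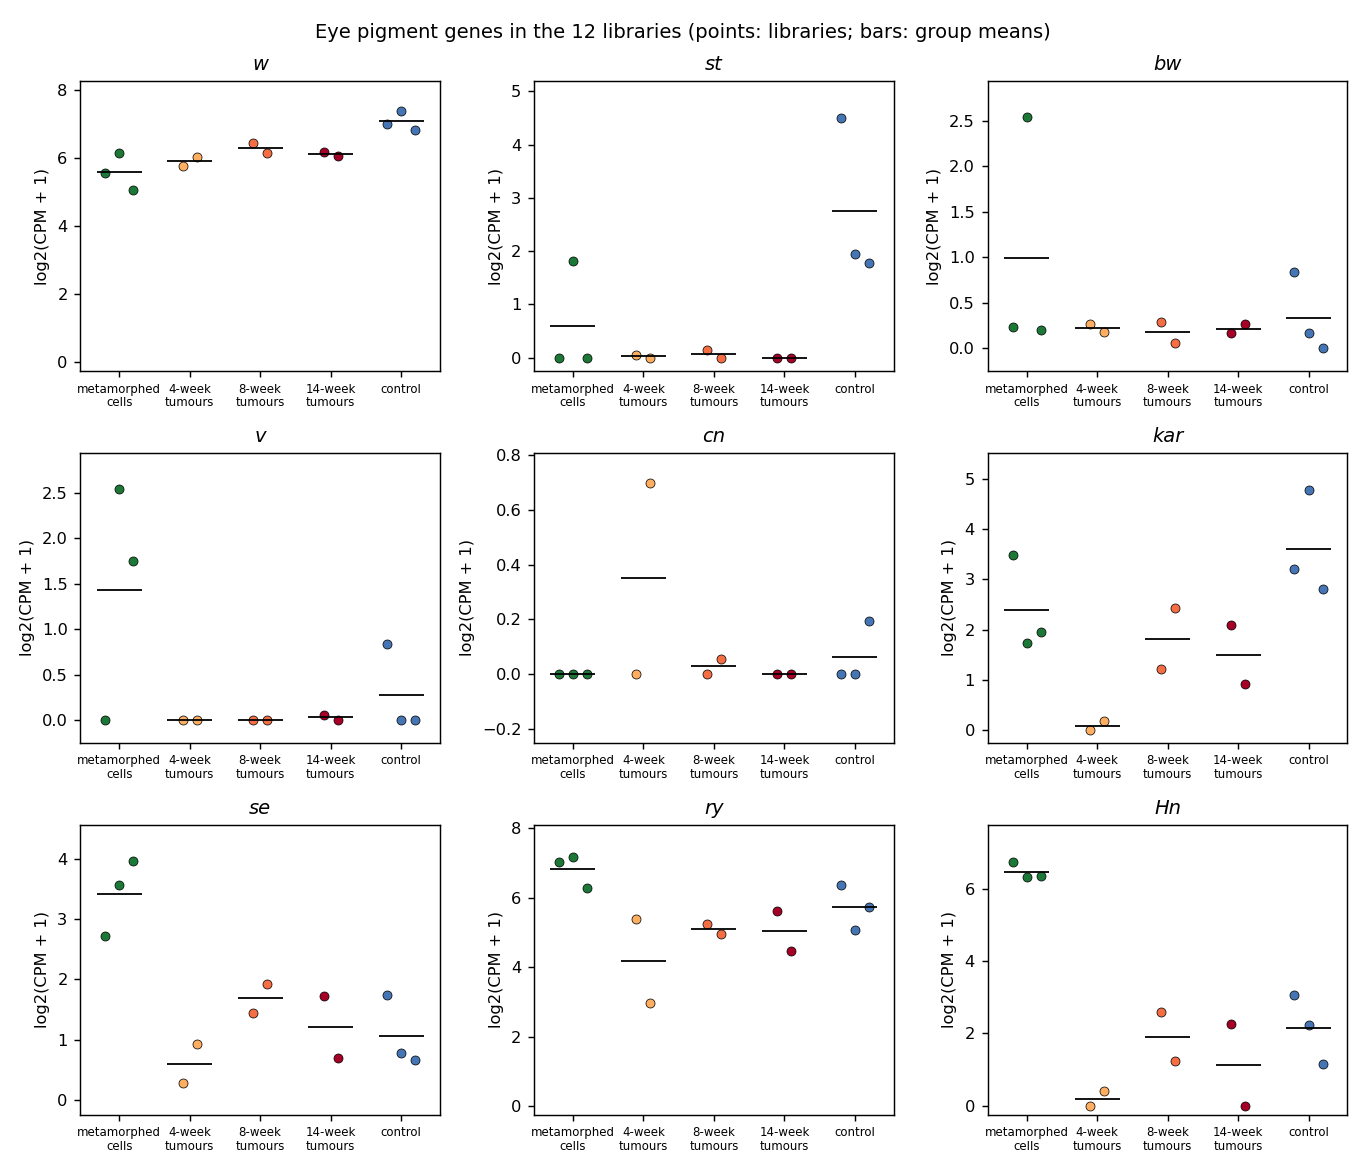
Level of each of the 9 pigment genes as log2(CPM + 1) in the 3 metamorphed libraries, the 2 tumour libraries of each age and the 3 control libraries, with bars at the group means and a y axis of its own for each gene. *Hn* and *se* are higher in all metamorphed libraries than in any other library, *w* is highest in the control libraries, and *bw* stands out only in metamorphed cells 2.

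Of the 9 pigment genes, *Hn* had the largest differences between metamorphed cells and the other groups on the log2(CPM + 1) scale. This scale shrinks the differences of low genes such as *v*, whose summed reads gave ratios of 335 against tumours and 72.5 against control. *Hn* (FBgn0001208, 3L:7760453-7763166, plus strand), or *Henna*, encodes phenylalanine hydroxylase, which uses tetrahydrobiopterin. It stood at 106, 80.2 and 80.9 CPM in metamorphed cells 1 to 3. The 4-week tumours had 0 and 0.312 CPM, the 8-week tumours 5.01 and 1.33 CPM and the 14-week tumours 3.80 and 0 CPM, against 7.45, 3.68 and 1.24 CPM in control 1 to 3. Every metamorphed library lay far above all tumours and controls. The log2 fold change was 4.32 against control (SE 0.68, limma adjusted p = 2.0e-04) and 5.40 against tumours (0.59, adjusted p = 5.4e-06). In tumours against control *Hn* did not pass (-1.08, 95% interval -2.35 to 0.19, adjusted p = 0.17), except without 14-week tumour 1 (-1.46, adjusted p = 0.048).

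*se* (FBgn0086348, 3L:8520552-8521489, plus strand) encodes a glutathione transferase of the omega class that makes a precursor of drosopterin. It stood at 5.59, 10.96 and 14.7 CPM in metamorphed cells 1 to 3. The 4-week tumours had 0.204 and 0.890 CPM, the 8-week tumours 1.73 and 2.79 CPM and the 14-week tumours 2.30 and 0.610 CPM, against 2.35, 0.710 and 0.574 CPM in control 1 to 3. All metamorphed libraries were above all others, and tumours and control overlapped. *se* was higher in metamorphed cells by 2.37 against control (SE 0.53, limma adjusted p = 0.0029) and by 2.26 against tumours (0.46, adjusted p = 0.0011). In tumours against control the value was 0.10 (95% interval -0.88 to 1.09, adjusted p = 0.90). Its sign changed between settings, and with quantile normalization it was higher, at 1.43 (adjusted p = 0.022). *se* shares 61 exon bases with *GstO2*, a paralog on the other strand that stood between 61.5 and 418 CPM. Reads of *GstO2* could therefore contribute to *se*, or reads of the shared bases be missing from it. *GstO2* itself was not called in metamorphed cells against control or tumours.

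*ry* (FBgn0003308, 3R:13032528-13038020, plus strand) encodes xanthine dehydrogenase, which makes uric acid and isoxanthopterin. It stood at 131, 142 and 77.1 CPM in metamorphed cells 1 to 3. The 4-week tumours had 41.1 and 6.77 CPM, the 8-week tumours 37.1 and 30.2 CPM and the 14-week tumours 48.1 and 21.1 CPM, against 81.9, 32.5 and 52.4 CPM in control 1 to 3. The metamorphed cells were above all tumours, and the lowest of them was just below the highest control. *ry* was higher in metamorphed cells than in tumours by 2.05 (SE 0.49, limma adjusted p = 0.0037). The value against control was 1.10 (95% interval -0.12 to 2.33, adjusted p = 0.14), and it passed with limma-voom (adjusted p = 0.037), when the fit held only the compared groups (0.045) and with the trend with transcript length removed (0.021). In tumours against control it was -0.95 (95% interval -2.01 to 0.11, adjusted p = 0.15), and -1.36 without 4-week tumour 1 (adjusted p = 0.019).

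Fat body markers were also highest in the metamorphed cells, and several pigment enzymes, *v* and *ry* among them, are known to be expressed in fat body. The fat body sum was highest in metamorphed library 1, at 9867 CPM against 2009 and 3795 CPM in libraries 2 and 3. This order came from the yolk protein genes, such as *Yp2* with 5433, 601 and 1565 CPM in libraries 1 to 3. *Lsp2* (256, 210 and 310 CPM), *Fbp1* (476, 365 and 493 CPM) and *Fbp2* (375, 349 and 544 CPM) differed less between the 3. *Hn* and *kar* were highest in library 1 and *se* in library 3. Photoreceptor markers were highest in metamorphed library 2, as were *w*, *st*, *bw*, *v* and *ry* within that group. Of the 3 genes listed as pigment cell markers, *santa-maria* was also highest there, with 0.0714, 22.7 and 14.2 CPM in libraries 1 to 3. The sum of these 3 genes was highest in library 3, at 57.7 CPM against 34.2 and 47.1 CPM in libraries 1 and 2. The part of other cell types in these values was not tested.

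Compared per length, as CPM per kilobase of exon, the order of the genes differed between groups. In metamorphed cells *Hn* was first with a mean of 42.1, followed by *ry* with 26.9 and *w* with 21.2. In tumours *w* had a mean of 29.2, *ry* of 7.08 and *se* of 1.72, and in control *w* had 58.2, *ry* 12.8, *kar* 5.06 and *st* 4.17. The ranges of *Hn* (37.9 to 50.2) and of *ry* (17.8 to 32.7) in metamorphed cells did not overlap, and those of *ry* and *w* (13.9 to 30.2) did.

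Taken by age, the tumours fell below control in *w*, *st* and *kar* at 4 weeks, and in *st* alone at 8 and at 14 weeks. These were 3, 1 and 1 of the 7 genes tested, where 34.2%, 12.5% and 26.6% of all genes passed at 4, 8 and 14 weeks. Without *st* and *v* they were 2, 0 and 0 of 5. *st* stood at -2.71, -2.67 and -2.74 at these ages (limma adjusted p = 0.015, 0.032 and 0.017). *w* stood at -1.17, -0.79 and -0.97 (adjusted p = 0.023, 0.19 and 0.060), and *kar* at -3.51, -1.77 and -2.09 (adjusted p = 0.0036, 0.16 and 0.054). A call at 4 weeks and none at 8 or 14 weeks does not show a change with age. No pigment gene passed in the direct tests between ages. Between 14-week and 4-week tumours, where 0.0983% of all genes passed, the largest difference was that of *kar*, at 1.41 (95% interval -0.35 to 3.18, limma adjusted p = 0.63). At an unadjusted p under 0.05, 962 genes or 9.45% differed between these ages, none of them a pigment gene. With 2 libraries per age the 3 counts depended on single libraries. The 4-week count fell to 1 without 4-week tumour 2, the 8-week count to 0 without either 8-week tumour or control 1, and the 14-week count to 0 without 14-week tumour 2. Without 14-week tumour 1 the 14-week count stayed at 1, but *st* was not called and another pigment gene was. The 14-week count was 2 without control 3 or without any of the metamorphed libraries.

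The metamorphed cells were also set against each age of tumour. *Hn* was higher than at every age, by 6.29, 4.58 and 5.35 at 4, 8 and 14 weeks (limma adjusted p = 2.3e-05, 3.7e-04 and 9.7e-05), and so was *se*, by 2.83, 1.74 and 2.22 (adjusted p = 0.0018, 0.038 and 0.0092). *ry* was higher than at 4 and 14 weeks, by 2.65 and 1.79 (adjusted p = 0.0045 and 0.039), and stood at 1.72 against 8 weeks (adjusted p = 0.055), with no overlap between libraries at any age. *kar* was higher than in 4-week tumours by 2.30 (adjusted p = 0.025). These were 4, 2 and 3 of the 7 genes, where 40.6%, 31.1% and 38.5% of all genes passed at the 3 ages. *v*, *w* and *st* passed against no single age.

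Across the 5 groups, few neighbours in the order of mean levels differed beyond their spread. For *Hn* the step between metamorphed cells and control passed, for *se* that between metamorphed cells and 8-week tumours (difference 1.74, limma adjusted p = 0.038), and for *st* that between control and metamorphed cells. All other neighbouring groups of *w*, *v*, *ry* and *kar*, and of these 3 genes, did not pass. For *w* the order was control, 8-week, 14-week and 4-week tumours and metamorphed cells. For *ry* it was metamorphed cells, control, 8-week, 14-week and 4-week tumours.

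The remaining enzymes of the pigment pathways were read as lists. Genes of these and the later lists that reached the filter only through a single group are counted too. Their counts stand beside the shares of all genes, which were 14.4% higher and 21.6% lower in tumours against control, 21.6% higher and 19.0% lower in metamorphed cells against control, and 28.5% higher and 18.0% lower in metamorphed cells against tumours. Of 7 other pteridine enzymes, 4 were higher and 0 lower in metamorphed cells than in control (median log2 fold change 1.06), and in tumours 1 was higher and 1 lower (median 0.49). *Pu*, the GTP cyclohydrolase that opens the pathway, stood at 579, 844 and 568 CPM in metamorphed cells 1 to 3. It stood at 0 and 0.134 CPM in 4-week, 10.2 and 2.10 CPM in 8-week and 2.67 and 12.9 CPM in 14-week tumours, against 16.1, 12.2 and 31.5 CPM in control. *Pu* was therefore lowest in 4-week tumours and higher in every metamorphed library than in any other. It was higher in metamorphed cells by 5.07 against control (SE 0.60, limma adjusted p = 1.8e-05) and by 7.52 against tumours (0.52, adjusted p = 7.7e-08), and lower in tumours than in control by -2.45 (0.52, adjusted p = 0.0028). *Sptr*, sepiapterin reductase, was higher in metamorphed cells by 2.74 against control and 2.06 against tumours (adjusted p = 9.8e-05 and 2.2e-04). *pr*, pyruvoyltetrahydropterin synthase, and *Dhpr*, dihydropteridine reductase, rose in metamorphed cells over control by 1.06 and 1.34 (adjusted p = 0.021 and 0.011), calls lost in 5 and 3 of 24 alternatives. *DhpD*, dihydropterin deaminase, had the smallest value of the list there, at 0.49 (adjusted p = 0.31). *cl*, or *clot*, a thioredoxin-like protein of drosopterin synthesis, was higher in tumours by 1.20 (adjusted p = 0.025), a call lost in 7 of 24 alternatives.

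Of the other ommochrome enzymes, both that were matched passed in both comparisons with control and in opposite directions. *cd* stood at 0, 0.476 and 0 CPM in metamorphed cells and had 0 reads in tumours, against 191 reads over the control libraries. It was lower than control by -2.73 in tumours (SE 0.52, limma adjusted p = 0.0015) and by -2.55 in metamorphed cells (0.60, adjusted p = 0.0044). *cd* reached the filter only through the control, where it is high, so these calls are not independent of the filter. Taking 3 reads over the 6 tumours as the floor, *cd* was 147-fold lower in tumours than in control. The exact 95% lower limit of this fold was 119 (counting error only). *Kyat*, a kynurenine aminotransferase that takes kynurenine out of the ommochrome pathway, stood between 100 and 165 CPM in metamorphed cells, between 184 and 354 CPM in tumours, and between 63.1 and 78.6 CPM in control. It was higher than control by 1.66 in tumours (adjusted p = 1.3e-04) and by 0.89 in metamorphed cells (adjusted p = 0.016), the second of these lost in 5 of 24 alternatives.

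**Figure D4:**
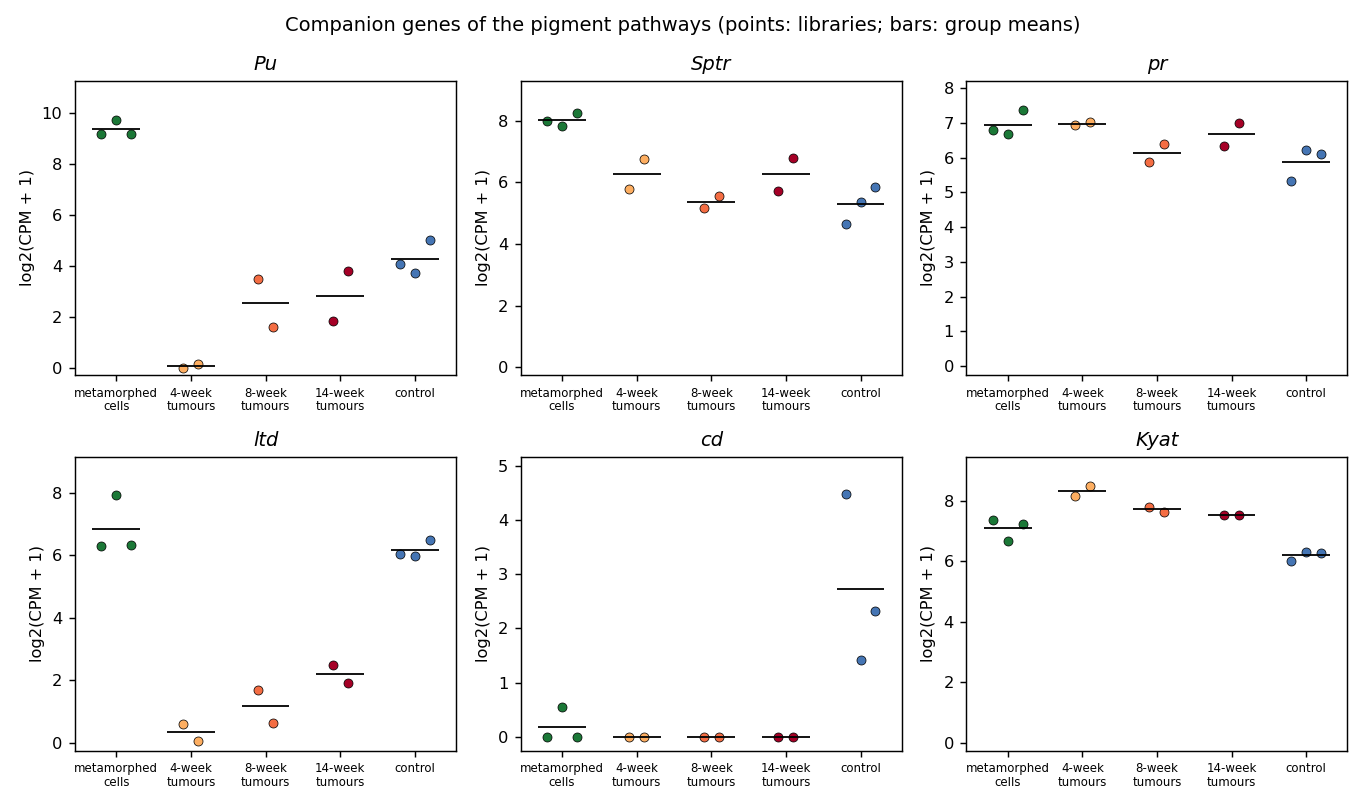
Level of *Pu*, *Sptr*, *pr*, *ltd*, *cd* and *Kyat* as log2(CPM + 1) in the 12 libraries by group, with bars at the group means and a y axis of its own for each gene. *Pu* stands at 568 to 844 CPM in the 3 metamorphed libraries and at 31.5 CPM or less elsewhere, *ltd* is at 4.61 CPM or less in the tumours, and *cd* has 0 reads in all 6 tumours.

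Pigment granules are related to lysosomes and need the same traffic proteins. Of 10 such genes, 4 were lower and 0 higher in tumours than in control (median -0.62), 0 passed in metamorphed cells against control (median 0.06), and 4 were higher in metamorphed cells than in tumours. Of all genes, 21.6% fell in the first of these comparisons and 28.5% rose in the last. *ltd*, or *lightoid*, the Rab GTPase of pigment granules, stood at 77.5, 243 and 79.2 CPM in metamorphed cells and between 0.0445 and 4.61 CPM in tumours, against 65.5, 62.0 and 88.2 CPM in control. All tumours were thus below all other libraries, by -4.93 against control (SE 0.46, limma adjusted p = 4.6e-06), while the metamorphed cells were higher than the tumours by 5.61 (0.46, adjusted p = 3.5e-07) and did not pass against control (0.68, adjusted p = 0.34). *dor*, a subunit of the HOPS tethering complex, was lower in tumours by -1.25 (adjusted p = 0.018), and *g* and *rb*, subunits of the AP-3 adaptor, by -0.97 and -0.84 (adjusted p = 0.047 and 0.023). The calls of *g*, *dor* and *rb* were lost in 15, 6 and 4 of 24 alternatives, and that of *ltd* in 0. The most positive value in tumours was that of *or*, another AP-3 subunit, at 0.69 (adjusted p = 0.074). In metamorphed cells against control the lowest was *lt*, a HOPS subunit, at -0.67, and the highest *car*, another, at 0.89, and neither passed (adjusted p = 0.14 and 0.10).

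Purines feed both the guanine carried by White and Brown and the GTP used by *Pu*. Of 8 purine genes, 1 was higher and 1 lower in tumours than in control (median 0.19), and 2 were higher and 1 lower in metamorphed cells than in control (median 0.10). These shares lay near those of all genes (14.4% higher and 21.6% lower in tumours, 21.6% higher and 19.0% lower in metamorphed cells). *Paics* was higher by 1.29 in tumours and by 2.00 in metamorphed cells (limma adjusted p = 8.0e-04 and 4.5e-05). *ras*, or *raspberry*, IMP dehydrogenase, was lower in metamorphed cells by -1.14 (adjusted p = 0.014), a call lost in 3 of 24 alternatives, and *bur*, GMP synthetase, was lower in tumours by -0.77 (adjusted p = 0.041), a call lost in 10 of 24 alternatives. *Prat2*, the other gene higher in metamorphed cells, is an amidotransferase at the start of the pathway. It stood at 4.64, 9.61 and 11.9 CPM in metamorphed cells and had 0 reads in all tumours and controls. *Prat2* thus reached the filter only through the metamorphed cells, where it is high, and without it only *Paics* was higher there than in control. With 3 reads over the group as the floor, *Prat2* was 165-fold higher in metamorphed cells than in control and 382-fold higher than in tumours. The exact 95% lower limits of these folds were 134 and 310 (counting error only). The 3 tested genes of the molybdenum cofactor, which Rosy needs, passed in none of the comparisons, with values of 0.02 for *cin*, -0.01 for *ma-l* and 0.56 for *Mocs1* in tumours and of 0.44, 0.46 and 0.48 in metamorphed cells against control.

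The relatives of the members in the ABCG family were read in the same way. Of 11 other ABCG transporter genes, 6 were lower and 0 higher in tumours than in control (median -1.25), and 8 were higher and 0 lower in metamorphed cells than in control (median 2.69), beside *w* and *st*, which were lower in both. All 11 were higher in metamorphed cells than in tumours (median 4.28). In tumours the lowest were *CG32091* at -3.80, *CG4822* at -3.28, *E23*, a transporter induced by ecdysone, at -2.23 and *CG11069* at -1.57 (limma adjusted p = 2.5e-04, 1.1e-04, 6.5e-04 and 0.0036), and the highest was *CG17646* at 0.00. In metamorphed cells against control the largest were *CG9664* at 4.29, *CG17646* at 3.98, *CG31689* at 3.22 and *CG5853* at 3.05 (adjusted p = 6.3e-04, 5.0e-05, 0.0082 and 3.3e-04), and the smallest was *E23* at 0.96 (adjusted p = 0.10). The call of *CG31689* was lost in 3 of 24 alternatives.

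Of 7 paralogs of *se* and *ry*, 2 were higher and 0 lower in tumours than in control (median 0.52) and 3 higher and 0 lower in metamorphed cells (median 0.95), where 14.4% and 21.6% of all genes were higher. *AOX1* and *AOX3*, aldehyde oxidases related to Rosy, rose in metamorphed cells over control by 5.01 and 4.18 (limma adjusted p = 2.6e-04 and 4.3e-05), and *AOX4* by 0.89 (adjusted p = 0.048), a call lost in 15 of 20 alternatives. *AOX4* reached the filter only through the metamorphed cells, where it was higher, so its call is not independent of the filter. Without it, only *AOX1* and *AOX3* were higher there than in control. *AOX1* was also higher in tumours, by 2.52 (adjusted p = 0.014), a call lost in 4 of 24 alternatives, and *AOX3* had the lowest value there, at -0.37 (adjusted p = 0.58). *GstO2* was higher in tumours by 1.54 (adjusted p = 0.0027), and *GstO1* had the lowest value in metamorphed cells, at -0.05 (adjusted p = 0.94). How the authors assigned reads that match several paralogs was not stated, so the values of such genes are uncertain.

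Over the 12 libraries the members fell into patterns that are given as a description, since the libraries share their groups and their depth. *se* and *Hn* were the most alike pair, with Pearson's r = 0.91 and Spearman's rho = 0.86 of log2(CPM + 1), followed by *ry* and *Hn* (r = 0.79, rho = 0.76) and *v* and *se* (r = 0.79, rho = 0.67). *w* and *st* had r = 0.69 and rho = 0.75. Among all genes tested, the 3 most like *Hn* were *CG43078*, *CG15629* and *CG15201*, at r = 0.96 to 0.97. The most like *se* were *CG8630*, *Gss1* and *Men* (0.94 to 0.96), the most like *ry* were *Pgant3*, *Usp12-46* and *gzl* (0.94 to 0.96), and the most like *w* were *cic*, *pod1* and *Gyf* (0.92 to 0.93). For *st* they were *lncRNA:CR44702*, *CG42392* and *Syn* (0.97 to 1.00). For *v* they were *GstE4*, *CG10560* and *Teh3* (0.98 to 1.00), and for *kar* the gene FBgn0031842, *Taf1* and *Ube4B* (0.89 to 0.93). No pigment gene was among the 3 genes most like another.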

How the data were processed

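RNA-seq of 12 samples was used, grouped by the submitters' labels. The authors aligned reads to dm6 with TopHat 2.0.12 and Bowtie 2.2.3 and deposited log2 CPM made with edgeR 3.16.5 in R 3.3.1. The read counter, its strand setting and the annotation are not given in the sources used here. Linear CPM had been assumed when the tests were chosen. Removing the prior, 2.0 reads on average, gave whole reads for 100.0% of values (within 0.01 reads), and from these linear CPM. Deposited normalization factors ranged from 0.611 to 1.239. Symbols and positions came from the Ensembl 115 annotation of BDGP6 (dm6) for 17215 of the 17521 identifiers.

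The test used log2(CPM + 1) of the 10177 genes that reached 1 CPM in 2 or more samples, which understates the change of low genes, and limma 3.58.1 in R 4.3.3 (trend), two-sided, in 1 model of 5 groups. Tumours were the mean of 3 ages. Benjamini-Hochberg adjustment covered all 10177 genes (threshold 0.05). Counting intervals were exact (95%). Python 3.11.15 with SciPy 1.17.1, NumPy 2.4.6, pandas 2.3.3 and matplotlib 3.10.9 served for the rest.

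The members and all lists were chosen with earlier results of these data known. All 9 members are described. Of each companion list, the extremes and up to 4 called genes per comparison with control are named, and the 3 genes most correlated with each tested member. *KFase*, *CG3164*, *PPO1* and *vas* were not matched and are not used here. *Mocs2A* and *Mocs2B* had 0 reads throughout. They share all of their 1420 exon bases on the same strand, so reads may not have been assigned to either, which was not tested.

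There were 24 alternatives, 12 of them leaving out 1 library each. The others changed the pseudocount (0.25 or 5 CPM), the filter (none, or 5 CPM), the scaling (quantile, total reads), the test (limma-voom on the recovered reads, the deposited log2 values), the samples (only the groups compared, without the 8-week tumours), added the replicate number as a block, or removed each library's lowess trend with transcript length (span 0.3). The steps were tested on simulated data. No 2 libraries of a group were duplicates.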

Additional observations from a re-analysis of the deposited data

Results flagged for a closer look

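In the 6 tumours *v* was listed at 0 in all libraries but 14-week tumour 1, with 0.0404 CPM or 1 read, and *cn* was highest in 4-week tumour 2, at 0.623 CPM, with the others between 0 and 0.0404 CPM. Each of these libraries lay farther from the other tumours than Dixon's test allows (ratios 1.000 and 0.918, critical value 0.625). For *v*, with reads in a single tumour library, the ratio is 1.000 whatever the count. All 9 genes were examined in the tumours this way. Chance flags about 1 in 20 such groups where values are normally distributed, which counts this low are not. Both values are near the floor of counting.

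2 genes that were not tested had reads above the control libraries. *bw* stood at 4.82 CPM in metamorphed cells 2, against 0 to 0.784 CPM in control. *cn* stood at 0.623 CPM in 4-week tumour 2, against 0 to 0.143 CPM in control.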

How the results depend on the processing

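Of the 11 called values of single pigment genes in the 3 main comparisons, taken over 259 settings, 247 kept their call and direction, 12 lost the call and 0 changed direction. Of the 10 values that were not called, taken over 231 settings, 209 stayed so, 12 were called and 10 changed sign. The sign changes were *v* in tumours against control at 0.11 with quantile normalization and 0.01 without control 1, *st* in metamorphed cells against tumours at -0.04 without metamorphed cells 2, and *se* in tumours against control at -0.04 with CPM of total reads, -0.16 without the 8-week tumours, -0.52 with the length trend removed, and, leaving out 1 library, -0.04 without control 2, -0.10 without control 3, -0.01 without 4-week tumour 2 and -0.07 without 14-week tumour 1. Leaving out 1 library, these values ranged from -0.41 to 0.01 for *v*, from -0.10 to 0.45 for *se* and from -0.04 to 0.87 for *st*.

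Leaving out 1 library in turn gave 2 to 4 called pigment genes in tumours against control, 3 to 4 in metamorphed cells against control and against tumours, 1 to 4 in 4-week, 0 to 1 in 8-week and 0 to 2 in 14-week tumours against control, and 0 between 14 and 4 weeks. The 8-week count of 1 was 0 with a pseudocount of 5 CPM, without the filter, with a filter of 5 CPM (which removed *st*) and with limma-voom. With quantile normalization the 8-week count stayed at 1, but *st* was not called and another pigment gene was. With the filter of 5 CPM the 14-week count likewise stayed at 1 through another pigment gene. The 14-week count of 1 was 0 with a pseudocount of 5 CPM, without the filter and with limma-voom, 3 with CPM of total reads and 2 with quantile normalization. The cause was not tested. With CPM of total reads the median of all genes moved from -0.26 to -0.70.

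With the replicate number as a block, there were 5 called genes in 4-week, 1 in 8-week and 3 in 14-week tumours, and 3, 4 and 4 in the main comparisons. The deviations of same-numbered libraries had a mean correlation across genes of -0.02 (-0.2 to 0.27), and those of others of 0.01 (-0.27 to 0.2). Deviations from a group mean cancel within the group, so means this small are built in and cannot show whether the numbers are pairs. The main fit did not take the numbers as pairs. In metamorphed cells against tumours, quantile normalization and removal of the length trend called *w* lower (-0.74 and -1.07, adjusted p = 0.038 and 0.0043), as did leaving out metamorphed cells 2 (-0.79, adjusted p = 0.043). *kar* was called higher there with limma-voom (2.61) and the deposited log2 values (2.39). Depth limits *st*, *v*, *bw* and *cn* most, since 3 reads in control 1 are 1.18 CPM.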
